A study of Mus musculus with 9 samples.

Results

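The 10 genes described here are neurofilament and neuronal growth genes, measured in cultured mouse myoblasts that overexpressed the transcription factor Pax3 or Pax7 or carried an empty vector. They were listed by symbol, with earlier results of these arrays known, and the probe set of each gene was chosen by its mean log2 intensity: each gene was read from the probe set that carried exactly 1 gene symbol and had the highest mean over the 9 arrays. All 10 were measured, among 19661 genes in all, and only Ina had more than 1 such probe set. Nefl, Nefm and Nrn1 had already stood out for their difference from control, so their values against control are a description without a test. For the remaining members an adjusted p against control comes from a fit over all genes, as does every adjusted p between Pax7 and Pax3. Neither is independent evidence, because the list was drawn up with earlier results of these arrays in view.

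Myoblasts are the dividing precursors of skeletal muscle. The cells were of Balb/c background and skeletal muscle origin and were grown in serum with basic fibroblast growth factor. There were 3 arrays of cells with an empty vector (control), 3 of cells overexpressing Pax3 and 3 of cells overexpressing Pax7. The control samples are titled CTAP, a name the labels do not spell out, and are described as carrying an empty vector. The labels used here do not say how the factors were introduced, nor whether a line was a clone or a pool, nor whether the 3 samples of a group were separate cultures, so p-values cover just the spread among these samples and that spread may be technical. Values are log2 intensities of 1 probe set per gene, with array medians between 6.397 and 6.477, which compare a gene between arrays and not one gene with another.

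Neurofilaments are the intermediate filaments of axons. They are heteropolymers of a light (Nefl), a medium (Nefm) and a heavy chain (Nefh), joined by alpha-internexin (Ina) in central and peripherin (Prph) in peripheral neurons, and they set axon calibre. Stmn2, Gap43, Map2, Tubb3 and Nrn1 belong to the machinery of neurite growth. Stathmin-2 regulates microtubule turnover in growing axons, GAP-43 is a membrane protein of growth cones, MAP2 is a microtubule-associated protein of dendrites, TUBB3 is the class III beta-tubulin used as a neuronal marker, and neuritin (Nrn1) is a membrane-anchored protein that promotes neurite and synapse growth. Pax3 and Pax7 are paralogous paired-box factors of muscle precursors, and Pax3 also acts in the neural tube and neural crest.

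The groups followed their labels. The log2 intensity of Pax3 was 11.05 ± 0.046 with Pax3 overexpressed, 6.82 ± 0.039 with Pax7 overexpressed and 5.83 ± 0.071 in control, and that of Pax7 was 8.18 ± 0.065, 12.28 ± 0.030 and 10.51 ± 0.081 (SD, n = 3 each). The mean log2 intensity over 12 myoblast markers was 11.22 in each control array, 10.81 to 10.84 in Pax3 and 10.80 to 10.82 in Pax7 arrays. Pax7, itself one of the 12, raised the mean of the arrays in which it was overexpressed: over the other 11 markers, a count chosen after the values were seen, the means ran from 11.28 to 11.29 in control, 11.05 to 11.09 in Pax3 and 10.67 to 10.68 in Pax7 arrays. Against control, single myoblast markers moved in both directions, as given below. The control arrays differed from all others in sex-linked genes. Xist was at 11.96 ± 0.071 and 11.72 ± 0.033 with Pax3 and Pax7 against 4.77 ± 0.13 in control, and the Y-linked Uty at 3.85 ± 0.085 and 3.77 ± 0.097 against 9.27 ± 0.094 (SD, n = 3 each). Eif2s3y and Kdm5d were at 8.78 and 8.31 in control, 3.12 and 4.24 with Pax3 and 3.08 and 4.29 with Pax7 (means, n = 3 each). In every comparison against control given here, the overexpressed factor cannot be told apart from this difference in sex-linked transcripts. Nor can it be told apart from anything else that differed between the control cells and the others.

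Promoter windows from RefSeq (build GRCm38.p6) were matched for 4 of the 10 members, Ina, Prph, Map2 and Tubb3. Those of Map2 and Tubb3 are shown because both genes were lower with either factor, and that of Ina as a neurofilament gene that did not pass in any comparison. Capitals mark an E-box (CANNTG, both strands), the motif bound by myogenic and neurogenic basic helix-loop-helix factors. The stretches lie on the plus strand at chr8:123411303-123411552 (Tubb3), chr1:66175079-66175201 (Map2) and chr19:47014431-47014680 (Ina), and that of Map2 stops before the first annotated start of the gene.
Tubb3: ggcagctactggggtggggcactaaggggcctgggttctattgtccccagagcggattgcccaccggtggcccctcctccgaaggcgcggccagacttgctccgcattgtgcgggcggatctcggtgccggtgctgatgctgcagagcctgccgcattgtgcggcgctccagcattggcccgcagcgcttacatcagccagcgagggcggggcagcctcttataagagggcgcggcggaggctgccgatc
Map2: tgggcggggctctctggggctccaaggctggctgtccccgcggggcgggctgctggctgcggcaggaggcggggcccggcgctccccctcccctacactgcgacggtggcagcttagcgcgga
Ina: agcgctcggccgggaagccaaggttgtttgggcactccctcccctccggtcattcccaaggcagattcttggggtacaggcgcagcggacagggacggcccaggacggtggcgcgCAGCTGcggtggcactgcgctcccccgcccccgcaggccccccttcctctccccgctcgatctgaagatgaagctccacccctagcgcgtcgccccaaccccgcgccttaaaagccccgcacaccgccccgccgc
Each motif was sought in a whole window of 250 bases. Of these bases, only 123 for Map2 and 0 for Prph lay before the first annotated start of the gene, so no stretch of Prph is shown. An E-box matched in 1 of the 4 windows, that of Ina, against 66.0% of 27025 windows of that length. The core ATTA bound by homeodomains, on both strands, matched in 0 of the 4 against 55.3% of all windows. The palindrome TAATNNATTA, which holds that core on either side, matched in 0 of the 4 against 0.396%, and the paired-domain core GTCACGC in 0 of the 4 against 1.88%. The windows were rich in G and C, with 81.2% for Map2, 70.8% for Ina, 68.0% for Tubb3 and 65.2% for Prph against a median of 52.0% over all windows. The absence of a match says only that these letters are not in these windows.

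The light and medium neurofilament chains were far higher with either factor, and the heavy chain was not. The light chain gene Nefl read 5.69, 5.54 and 5.41 in control arrays, 11.20, 11.25 and 11.24 in Pax3 arrays and 11.14, 11.12 and 11.25 in Pax7 arrays. The lowest Pax3 or Pax7 array thus lay far above the highest control array, while Pax3 and Pax7 arrays overlapped. Nefl differed from control by 5.68 ± 0.068 in Pax3 arrays and by 5.62 ± 0.068 in Pax7 arrays (log2, moderated SE, n = 3 per group), which is 51.3-fold and 49.2-fold on the measured scale. The control values lay below the median of every array, and background signal at that level would make these folds too small. The same limit holds for the control values of Nefm and Stmn2 and for the control and Pax3 values of Gap43. It also holds for the Pax3 and Pax7 values of Nrn1, Map2 and Tubb3, so both sides of their comparison between the factors lay below the medians. All values of Ina and Prph lay there too. For other genes named below, the limit holds wherever their values lay under the medians. Nefl ranked 3 among all 19661 genes by upward difference in both comparisons, which share the control arrays.

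Nefm, the medium chain, showed the same order of groups. It read 5.11, 5.15 and 5.30 in control arrays, 9.01, 9.09 and 8.88 in Pax3 arrays and 8.96, 8.90 and 9.04 in Pax7 arrays. The control arrays again stood apart from both other groups, which overlapped each other. The difference from control was 3.80 ± 0.069 with Pax3 and 3.78 ± 0.069 with Pax7 (log2, SE, n = 3 per group), or 14.0-fold and 13.7-fold. Neither chain passed between Pax7 and Pax3 arrays. The difference was -0.063 for Nefl (95% interval -0.21 to 0.088, limma adjusted p = 0.637) and -0.025 for Nefm (-0.18 to 0.13, adjusted p = 0.873), so the intervals allow a difference of up to about 0.21 log2 units, small beside the gap from control.

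The heavy chain gene Nefh stayed within the spread of its arrays. It read 6.98, 6.82 and 6.98 in control, 6.98, 6.84 and 7.14 in Pax3 and 6.98, 6.91 and 7.06 in Pax7 arrays, and all 3 groups overlapped. It was at 0.060 ± 0.078 with Pax3 and 0.055 ± 0.078 with Pax7 against control (log2, SE, n = 3 per group; limma adjusted p = 0.613 and 0.616). The 95% intervals ran from -0.11 to 0.23 and from -0.12 to 0.23, which excludes a change of the size seen in Nefl or Nefm on this scale. Control replicates 1 and 3, Pax3 replicate 1 and Pax7 replicate 1 held exactly the same Nefh value, and repeated values can narrow these intervals. The files give no detection calls, so a level near the background of a probe set cannot be told from expression.

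The neurofilament partners Ina and Prph likewise did not pass. Ina read 5.44, 5.57 and 5.54 in control arrays, 5.67, 5.56 and 5.66 in Pax3 arrays and 5.71, 5.56 and 5.65 in Pax7 arrays, with all groups overlapping. It was at 0.12 ± 0.055 against control in both comparisons (log2, SE, n = 3 per group; limma adjusted p = 0.126 for Pax3 and 0.0991 for Pax7). Prph read 6.01, 5.93 and 5.999 in control, 5.80, 5.84 and 6.06 in Pax3 and 5.93, 5.93 and 5.89 in Pax7 arrays. The highest Pax3 array lay above every control array and the other Pax3 arrays below, and Prph was at -0.083 ± 0.064 with Pax3 (limma adjusted p = 0.367) and -0.062 ± 0.064 with Pax7 (adjusted p = 0.486). Control replicate 2 and Pax7 replicates 1 and 2 held exactly the same Prph value. Without Pax3 replicate 3, Prph passed against control (-0.16, adjusted p = 0.0126; range over its alternatives 0.0126 to 0.759).

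Among the growth genes, Stmn2 rose with both factors. It read 6.32, 6.34 and 6.35 in control arrays, 9.19, 9.18 and 9.18 in Pax3 arrays and 9.36, 9.35 and 9.44 in Pax7 arrays. The 3 groups did not overlap, and Pax7 arrays were the highest. Stmn2 rose by 2.85 ± 0.040 with Pax3 (7.19-fold) and by 3.04 ± 0.040 with Pax7 (8.25-fold; log2, SE, n = 3 per group; limma adjusted p = 3.71e-12 and 1.73e-12). It was 0.20 ± 0.040 log2 units higher in Pax7 than in Pax3 arrays (limma adjusted p = 0.00567).

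Gap43 moved far less. It read 6.11, 6.08 and 6.26 in control, 6.26, 6.39 and 6.39 in Pax3 and 6.58, 6.53 and 6.58 in Pax7 arrays, so the lowest Pax3 array lay just below the highest control array and the Pax7 arrays lay above all others. It was 0.41 ± 0.059 higher with Pax7 than in control (1.33-fold; limma adjusted p = 0.000141), and that call held under every alternative in which it was fitted (adjusted p up to 0.00111). The rise with Pax3, 0.20 ± 0.059 (adjusted p = 0.0202), was lost when control replicate 1 or 2 or Pax3 replicate 2 or 3 was left out, and when only the 6 arrays compared were fitted (adjusted p up to 0.0862; range over all alternatives 0.00451 to 0.0862).

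**Figure D1:**
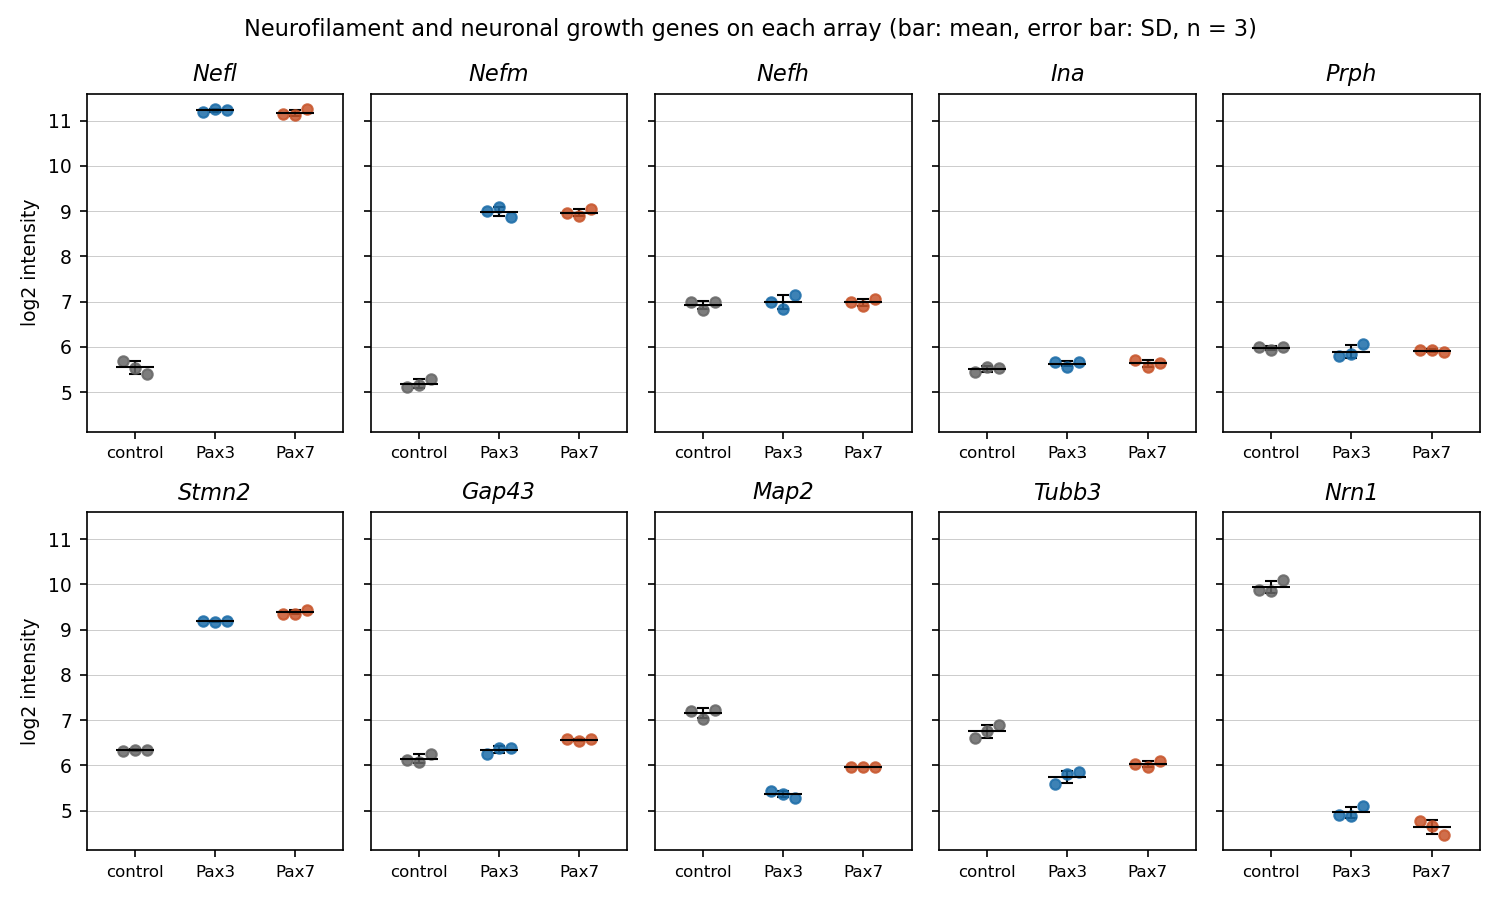
Log2 intensity of the 10 genes on each of the 9 arrays, by group (points: arrays; bar: group mean; error bar: SD, n = 3). Nefl, Nefm and Stmn2 lie higher and Map2, Tubb3 and Nrn1 lower in all Pax3 and Pax7 arrays than in any control array, whereas Nefh, Ina and Prph overlap between all groups.

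The remaining 3 genes were lower with either factor. Nrn1 read 9.87, 9.85 and 10.09 in control arrays, 4.92, 4.87 and 5.10 in Pax3 arrays and 4.78, 4.67 and 4.47 in Pax7 arrays. The control arrays were far above the rest, and the Pax7 arrays were below all Pax3 arrays. Nrn1 differed from control by -4.97 ± 0.092 with Pax3 (31.4-fold lower) and by -5.30 ± 0.092 with Pax7 (39.4-fold lower; log2, SE, n = 3 per group).

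Map2 fell with both factors, and more with Pax3. It read 7.21, 7.03 and 7.22 in control arrays, 5.43, 5.37 and 5.29 in Pax3 arrays and 5.97 in each of the 3 Pax7 arrays. The groups did not overlap, and Pax7 arrays lay between the other groups. Map2 fell by 1.79 ± 0.058 with Pax3 (3.45-fold) and by 1.18 ± 0.058 with Pax7 (2.27-fold; log2, SE, n = 3 per group; limma adjusted p = 1.37e-09 and 2.15e-08). The 3 Pax7 arrays held exactly the same value, a feature of 1.84% of all genes in that group, so its SD there was 0. The standard error pools the spread of all 3 groups with the prior, so this SD of 0 made it smaller, also between Pax7 and Pax3.

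Tubb3 followed the same order. It read 6.61, 6.76 and 6.90 in control, 5.59, 5.81 and 5.85 in Pax3 and 6.03, 5.97 and 6.10 in Pax7 arrays, with no overlap between groups. It fell by 1.00 ± 0.084 with Pax3 (2.01-fold) and by 0.72 ± 0.084 with Pax7 (1.65-fold; log2, SE, n = 3 per group; limma adjusted p = 2.49e-06 and 2.91e-05). Beta-tubulin genes are similar in sequence, so their probe sets can share signal. In bulk RNA, fewer cells of a type and less RNA per cell cannot be told apart, which holds for every difference given here.

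Counted over the members, 7 of 10 passed against control with Pax3, 4 higher and 3 lower, beside 39.6% of all genes (19.8% higher and 19.7% lower). With Pax7 the count was again 7 of 10, 4 higher and 3 lower, beside 43.2% (21.6% higher and 21.5% lower). The groups did not overlap in 6 members with Pax3 (45.1% of all genes) and in 7 with Pax7 (55.5%). The members' median log2 difference was 0.089 in both comparisons, against 0.016 and 0.027 over all genes. Because the genes were listed with these contrasts known, nothing is read from these shares.

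The Y-linked Uty did not pass between Pax7 and Pax3 arrays (-0.076 ± 0.067, limma adjusted p = 0.551), whereas Xist was lower in all Pax7 arrays than in any Pax3 array (-0.24 ± 0.064, adjusted p = 0.0262; log2, SE, n = 3 per group). In this comparison 5 of 10 members passed, 4 higher and 1 lower with Pax7, beside 16.9% of all genes (8.33% higher and 8.54% lower), and the groups did not overlap in the same number of members (29.4% of all genes). The genes were listed with earlier results of these arrays known, so nothing is read from these shares either. Map2 was 1.52-fold higher in Pax7 arrays (0.60 ± 0.058, limma adjusted p = 3.32e-05), the largest of these differences, and this call and that of Stmn2 held under every alternative in which they were fitted (adjusted p up to 0.000344 and 0.0300). Tubb3 was 0.28 ± 0.084 higher (adjusted p = 0.0434), Gap43 0.22 ± 0.059 higher (0.0272) and Nrn1 0.33 lower (-0.33 ± 0.092, 0.0339; log2, SE, n = 3 per group). The difference in Xist was close in size to these last 3. Of the 11 myoblast markers other than Pax7, 0 were higher and 8 lower in Pax7 than in Pax3 arrays (72.7%), and of 12 epithelial markers 4 were higher and 0 lower (33.3%). The part of Xist and of these markers in the differences of the members was not tested.

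Those last 3 calls were fragile. Leaving out control replicate 2, Pax3 replicate 1 or 2 or any Pax7 array ended the call of Tubb3 (adjusted p up to 0.161, range over all alternatives 0.00985 to 0.161). For Gap43 this was so without Pax3 replicate 1 or any Pax7 array (up to 0.107, range 0.0126 to 0.107). For Nrn1 it was so without Pax3 replicate 1 or 3 or Pax7 replicate 2 or 3, and with only the 6 arrays compared (up to 0.132, range 0.0253 to 0.132). Nefl, Nefm, Nefh, Ina and Prph did not pass here in any alternative.

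**Figure D2:**
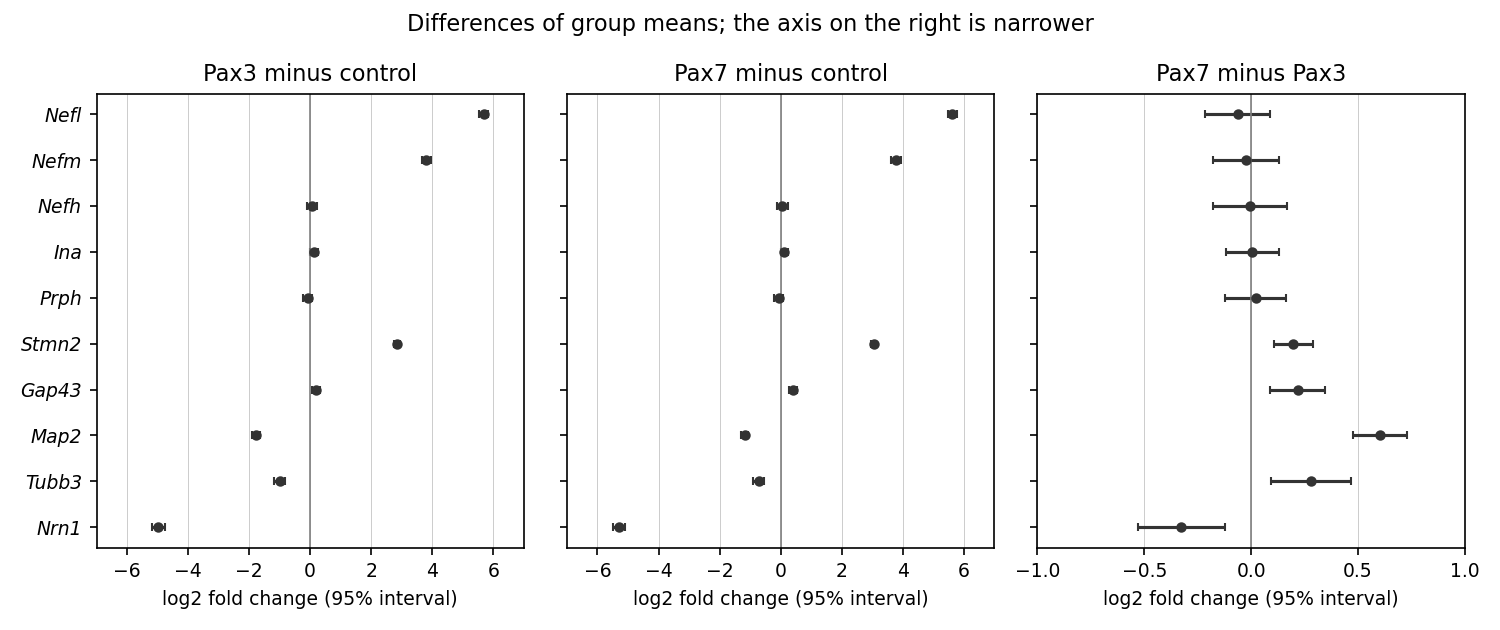
Differences of group means in log2 units for the 10 genes (points), with 95% intervals from the limma fit (bars), for Pax3 minus control, Pax7 minus control and Pax7 minus Pax3. The third axis is narrower than the others: Map2 stands highest there at 0.60, and the intervals of Nefl, Nefm, Nefh, Ina and Prph include 0.

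Nefl and Nefm are neighbouring genes, with 1 annotated gene, a pseudogene, between them in the RefSeq annotation. None of the 3 annotated genes on each side of the pair was measured (0 of 6), so the 3 nearest measured genes on each side were added after this was seen. Dock5, a guanine nucleotide exchange factor for Rac on the Nefl side, read 6.59, 6.52 and 6.70 in control, 8.67, 8.71 and 8.62 in Pax3 and 9.64, 9.60 and 9.57 in Pax7 arrays. The 3 groups did not overlap, and Dock5 rose by 2.06 ± 0.054 with Pax3 and 3.00 ± 0.054 with Pax7 (log2, SE, n = 3 per group; limma adjusted p = 2.58e-10 and 1.14e-11). Unlike Nefl and Nefm it also passed between the factors, being 0.94 ± 0.054 higher in Pax7 arrays (adjusted p = 7.77e-07).

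The other neighbours did not rise. Gnrh1, which encodes gonadotropin-releasing hormone, fell by 0.37 ± 0.059 with Pax3 and by 0.56 ± 0.059 with Pax7 (log2, SE, n = 3 per group; limma adjusted p = 0.000361 and 1.38e-05). Kctd9 beyond it was at -0.026 and 0.062 (adjusted p = 0.750 and 0.371). On the Nefm side the metalloproteinase-family genes Adam7, Adamdec1 and Adam28 were at 0.033, -0.050 and 0.030 with Pax3 and 0.095, 0.014 and 0.030 with Pax7, and none of them passed.

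**Figure D3:**
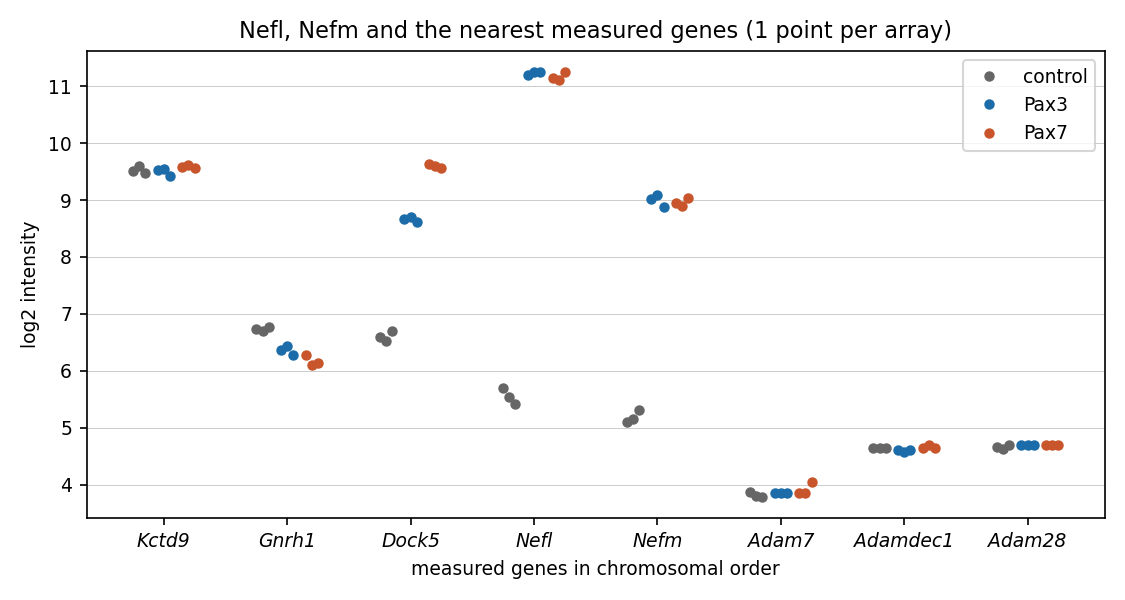
Log2 intensity on each array for Nefl, Nefm and the 3 nearest measured genes on each side, in chromosomal order (1 point per array; levels are to be compared within a gene only). Dock5, Nefl and Nefm lie higher in all Pax3 and Pax7 arrays than in control arrays, Gnrh1 lies lower, and the values of Kctd9 and of the 3 genes beyond Nefm lie close together in all groups.

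Patterns over the 9 arrays were compared by the root mean square difference of log2 values centred on each gene's mean. Clone, locus and predicted symbols, microRNAs, small nucleolar RNAs and olfactory and vomeronasal receptors were left out of the search. Among the other genes, the 5 most like Nefl were the collagen receptor subunit Itga2 (0.356), mesothelin Msln (0.445), Epb41l4a (0.4997), the desmosome component Dsp (0.508) and Niban1 (0.562). All 5 had lower differences from control than Nefl, between 4.34 and 4.90 with Pax3 and between 4.68 and 4.99 with Pax7. For Nrn1 the nearest were the Y-linked Uty (0.222), the metalloproteinase inhibitor Timp3 (0.262), Prr32 (0.269), the Y-linked Eif2s3y (0.309) and Asb4 (0.380). The sex-linked genes Uty and Eif2s3y thus stood among the 5 closest patterns to Nrn1 in this search, although Nrn1 itself is an autosomal gene. Nrn1 and Uty differed from control by -4.97 and -5.42 with Pax3, and by -5.30 and -5.50 with Pax7. These likenesses are a description over 9 arrays in 3 groups.

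Other genes of axonal cytoskeleton and growth moved in both directions. Of 47 measured, 11 rose, 16 fell and 20 did not pass with Pax3 (57.4% called), with a median log2 difference of 0.013, against 39.6% and 0.016 over all genes. With Pax7, 14 rose, 15 fell and 18 did not pass (61.7%, median 0.033), against 43.2% and 0.027. The kinesin Kif1a, a motor that carries synaptic vesicle precursors along axons, rose most, by 2.87 ± 0.047 with Pax3 and 3.14 ± 0.047 with Pax7 (log2, SE, n = 3 per group; limma adjusted p = 1.24e-11 and 3.69e-12). Its arrays read 5.90, 5.93 and 5.998 in control, 8.81, 8.87 and 8.74 in Pax3 and 9.06, 9.09 and 9.11 in Pax7, with no overlap. The adhesion molecule Nrcam rose by 1.95 ± 0.070 with Pax7 and by 1.51 ± 0.070 with Pax3.

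The largest falls in that list were those of Fabp7, Uchl1 and Kif5c with Pax3. The brain fatty acid binding protein gene Fabp7, a marker of radial glia, fell by 3.20 ± 0.13 with Pax3 and by 1.94 ± 0.13 with Pax7. Uchl1, an abundant neuronal deubiquitinase, fell by 2.18 ± 0.054 and 2.20 ± 0.054, and the conventional kinesin heavy chain Kif5c fell by 1.67 ± 0.058 with Pax3 (limma adjusted p at most 3.75e-07 for each of these falls). Between Pax7 and Pax3 arrays 9 were higher and 6 lower of 47 (31.9%, median 0.021, against 16.9% and 0.0067 over all genes). Fabp7 was 1.26 ± 0.13 higher and the ubiquitin ligase Trim2, which acts on the neurofilament light chain, 0.75 ± 0.062 higher with Pax7. The microtubule-associated protein Map1b was at -0.84 ± 0.043 and the adhesion molecule Ncam1 at -0.60 ± 0.040 (limma adjusted p at most 6.78e-05 for these 4).

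**Figure D4:**
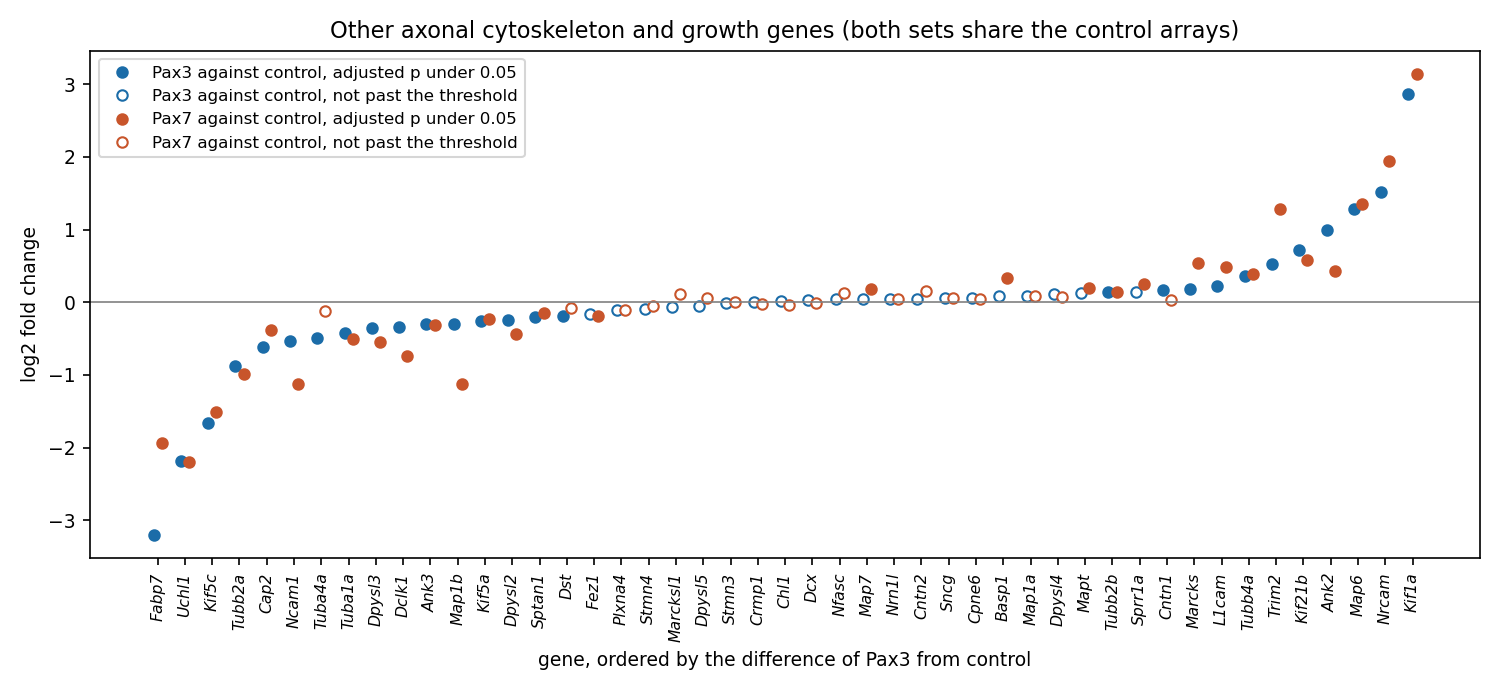
Log2 fold changes against control of the 47 other axonal cytoskeleton and growth genes, ordered by the Pax3 value, for Pax3 and Pax7 (filled points: limma adjusted p under 0.05; open points: not past the threshold). The values run from Fabp7 at -3.20 to Kif1a at 2.87 with Pax3, and both sets share the control arrays.

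Among 15 other intermediate filament genes, 3 rose and 4 fell with Pax3 (46.7% called, beside 39.6% of all genes), 3 rose and 6 fell with Pax7 (60.0%, beside 43.2%), and 2 were higher and 4 lower in Pax7 than in Pax3 arrays (40.0%, beside 16.9%). The median log2 difference of that list was -0.0059 with Pax3, -0.059 with Pax7 and -0.023 between the factors. The simple keratin Krt18 was 0.66 ± 0.094 higher with Pax3 and 2.44 ± 0.094 higher with Pax7. Its 3 Pax3 arrays held exactly the same value, and this SD of 0 made its SE smaller, as with Map2. Desmin (Des), the filament of muscle, was at -0.52 ± 0.042 and -1.33 ± 0.042, and the B-type lamin Lmnb2 at -0.49 ± 0.064 and -0.71 ± 0.064 (log2, SE, n = 3 per group; limma adjusted p at most 0.000179 for these 3 genes). Lmnb1 fell by 0.44 ± 0.056 with Pax3 and the keratin Krt19 rose by 0.72 ± 0.083 with Pax7. Between the factors, Krt18 was 1.79 ± 0.094 and Krt19 0.46 ± 0.083 higher and Des was at -0.81 ± 0.042 and Lmnb2 at -0.22 ± 0.064 in Pax7 arrays.

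Of 24 neuronal transcription and splicing factors measured, 1 rose and 5 fell with Pax3 (25.0% called, beside 39.6% of all genes), 2 rose and 5 fell with Pax7 (29.2%, beside 43.2%), and 1 was higher and 2 lower in Pax7 than in Pax3 arrays (12.5%, beside 16.9%). Their median log2 difference was 0.0043, 0.046 and 0.027. The factors Ebf1 and Ebf3 fell, Ebf1 to -1.83 ± 0.090 with Pax3 and -3.04 ± 0.090 with Pax7 relative to control, and Ebf3 to -1.19 ± 0.059 and -1.56 ± 0.059. Pou4f1, a factor of sensory neurons, fell by 0.72 ± 0.12 and 0.53 ± 0.12, and the splicing repressor Ptbp2 by 0.48 ± 0.041 and 0.61 ± 0.041 (log2, SE, n = 3 per group; limma adjusted p at most 0.00354 for these 4 genes). The neuronal RNA-binding protein gene Elavl2 rose by 0.49 ± 0.087 with Pax7 (adjusted p = 0.000718) and was at 0.21 ± 0.087 with Pax3 (adjusted p = 0.0890). Between the factors Ebf1 was at -1.22 ± 0.090, Ebf3 at -0.37 ± 0.059 and Elavl2 at 0.29 ± 0.087 (adjusted p = 0.0460). All values of Elavl2, those of Pou4f1 except in control replicate 3 (6.42), and the Pax7 values of Ebf1 lay below the median of every array.

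Of 25 synaptic and secretory genes, 5 rose and 3 fell with Pax3 (32.0% called, beside 39.6% of all genes), 7 rose and 3 fell with Pax7 (40.0%, beside 43.2%), and 2 were higher and 2 lower between the factors (16.0%, beside 16.9%). The median log2 difference was 0.042, 0.12 and 0.023. Secretogranin Scg2 rose by 1.18 ± 0.11 with Pax3 and 1.14 ± 0.11 with Pax7, and the complexin Cplx2 fell by 0.76 ± 0.059 and 0.90 ± 0.059. The prohormone-processing enzyme Cpe rose by 1.33 ± 0.076 with Pax7 and was 1.48 ± 0.076 higher there than with Pax3. The synapsins Syn1 and Syn2 rose by 0.38 ± 0.044 and 0.43 ± 0.060 with Pax3, and the synaptic vesicle protein Sv2a rose by 0.66 ± 0.059 with Pax7 (log2, SE, n = 3 per group; limma adjusted p at most 0.000141 for these 6 genes). Between the factors Sv2a was at 0.37 ± 0.059, Sv2b at -0.25 ± 0.058 and dynamin Dnm1 at -0.19 ± 0.049. All values of Scg2 and Sv2b lay below the median of every array.

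Of 17 neurotrophin and neuropeptide genes and receptors, 2 rose and 2 fell with Pax3 (23.5% called, beside 39.6% of all genes), 4 rose and 3 fell with Pax7 (41.2%, beside 43.2%), and 4 were higher and 2 lower between the factors (35.3%, beside 16.9%). The median log2 difference was 0.042, 0.11 and 0.061. The neuropeptide galanin (Gal) fell by 1.90 ± 0.082 with Pax3 and fell by 2.30 ± 0.082 with Pax7, and the GDNF receptor subunit Gfra1 fell by 0.86 ± 0.048 and 1.42 ± 0.048. The 3 Pax3 arrays held exactly the same value of Gfra1, and this SD of 0 made its SE smaller. The ciliary neurotrophic factor receptor Cntfr rose by 0.32 ± 0.065 and 1.05 ± 0.065, and the sorting receptor Sort1 rose by 0.38 ± 0.047 and 0.55 ± 0.047 (log2, SE, n = 3 per group; limma adjusted p at most 0.00239 for these 4 genes). Between the factors Cntfr was at 0.74 ± 0.065, Gfra1 at -0.56 ± 0.048, Gal at -0.39 ± 0.082 and the ligand Gdnf at 0.29 ± 0.077. All values of Gdnf lay below the median of every array.

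Markers of other cell types were read beside these differences, with 39.6%, 43.2% and 16.9% of all genes called in the comparisons of Pax3 with control, Pax7 with control and Pax7 with Pax3. Of 11 measured neuron markers, which include the members Nefh and Tubb3, 2 rose and 1 fell with Pax3 (27.3% called), 3 rose and 1 fell with Pax7 (36.4%), and Tubb3 alone passed between the factors (9.09%). Their mean log2 intensity ran from 6.02 to 6.09 in control, 6.07 to 6.21 in Pax3 and 6.15 to 6.17 in Pax7 arrays. Neuron-specific enolase Eno2 rose by 1.17 ± 0.064 with Pax3 and 1.20 ± 0.064 with Pax7 (limma adjusted p = 7.88e-08 and 4.38e-08), the synapsin Syn1 by 0.38 ± 0.044 and 0.34 ± 0.044, and the synaptic vesicle protein Syt1 rose by 0.19 ± 0.054 with Pax7 (adjusted p = 0.0157). Tubb3 fell, as given above. All values of Syt1 lay below the median of every array. The 8 markers that did not pass with Pax3 ran from -0.12 to 0.13 and the 7 with Pax7 from -0.11 to 0.082, and both sets include the neuronal RNA-binding protein genes Rbfox3, Elavl3 and Elavl4.

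Of 10 Schwann cell and glia markers, 0 rose and 4 fell with Pax3 (40.0% called), 1 rose and 3 fell with Pax7 (40.0%), and 3 were higher and 0 lower with Pax7 than with Pax3 (30.0%). Their mean log2 intensity ran from 6.75 to 6.83 in control, 6.28 to 6.37 in Pax3 and 6.60 to 6.63 in Pax7 arrays. Fabp7, with the largest fall in the list, weighs most on these means. Besides Fabp7, the neuregulin receptor Erbb3 fell by 0.77 ± 0.048 and 0.60 ± 0.048 and the Schwann cell factor Egr2 by 0.58 ± 0.070 and 0.36 ± 0.070 with Pax3 and Pax7. The myelin protein Pmp22 fell by 0.39 ± 0.044 with Pax3 and rose by 0.47 ± 0.044 with Pax7 (limma adjusted p at most 0.00141 for these 3 genes). The 6 markers that did not pass, Sox10 among them, ran from -0.045 to 0.11 with Pax3 and from 0.0064 to 0.19 with Pax7. All values of Egr2 lay below the median of every array.

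Of 12 epithelial markers, 6 rose with Pax3 (50%, beside 19.8% of all genes higher) and 7 with Pax7 (58.3%, beside 21.6% higher), and none fell. Their mean log2 intensity ran from 5.86 to 5.98 in control, 6.42 to 6.49 in Pax3 and 6.91 to 6.93 in Pax7 arrays. Dsp rose most, by 4.57 ± 0.11 with Pax3 and 4.83 ± 0.11 with Pax7 (log2, SE), and weighs most on these means. Cdh1, Krt5, Cldn4, Cldn7 and Esrp1 passed with neither factor. Of 11 fibroblast markers, 1 rose and 2 fell with Pax3 (27.3%), 2 rose and 2 fell with Pax7 (36.4%), and 1 was higher and 1 lower between the factors (18.2%), with means of 5.61 to 5.64, 5.54 to 5.73 and 5.50 to 5.598 in control, Pax3 and Pax7 arrays. Of the 12 myoblast markers, 2 rose and 8 fell with Pax3 (83.3%), 3 rose and 8 fell with Pax7 (91.7%), and 1 was higher and 8 lower with Pax7 than with Pax3 (75.0%). Without Pax7 itself, 2 of 11 rose and 7 fell with Pax3 (81.8%), and 2 rose and 8 fell with Pax7 (90.9%). Those that rose were Myf5 and Vcam1 with either factor. Myf5 rose by 1.97 ± 0.056 with Pax3 and 2.02 ± 0.056 with Pax7, and Vcam1 by 0.88 ± 0.049 and 0.62 ± 0.049. Those that fell included Des, given above, and Myog, at -1.30 ± 0.066 and -2.43 ± 0.066 (log2, SE, n = 3 per group). The limma adjusted p was at most 1.25e-06 for Myf5, Vcam1 and Myog. The lists overlap, so their counts are not separate. Fabp7 stands among the glia markers and the axonal genes, and Gfap among the glia markers and the filaments. Syn1, Syp, Syt1 and Snap25 stand among the neuron markers and the synaptic genes. Rbfox3, Elavl3, Elavl4 and Isl1 stand among the neuron markers and the transcription and splicing factors. Krt8, Krt18 and Krt19 stand among the epithelial markers and the filaments. Des stands among the myoblast markers and the filaments, and Ncam1 among the myoblast markers and the axonal genes. The part of the glia, epithelial and myoblast markers in the differences of the neurofilament and growth genes from control was not tested.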

How the data were processed

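Biotin-labelled total RNA of 9 samples was measured on Affymetrix arrays, per the labels' protocols. The authors deposited log2 intensities per probe set after RMA in R 2.10.0, per the submitters' processing notes. RMA subtracts background, normalises quantiles and summarises probes. The genome build and filters were not given in the sources used here. Exactly repeated values occurred in 42.9% of genes, which can lower within-group SDs.

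Gene names came from the platform annotation: 20777 of 25668 probe sets carried 1 symbol, 232 several and 4659 none. For 19661 genes, 1 probe set each (that of the highest mean over the arrays) was fitted in limma 3.58.1 (R 4.3.3; a mean per group over 9 arrays, residual df 6, moderated SE) with Benjamini-Hochberg adjustment over all genes and a threshold of 0.05. The fit was tested on simulated data. The number of arrays limits the precision.

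Members and gene lists were chosen with earlier results of these data known. Named genes were the members, Pax3, Pax7, the sex-linked checks, up to 4 called genes with the largest change per list and comparison, the neighbours of Nefl and Nefm, and the 5 nearest patterns to Nefl and Nrn1 among the symbols searched. The named neuron, glia, epithelial and myoblast markers, Elavl2 against control and the nearest measured neighbours lie outside that rule and were named later. Alternatives were a trend and robust prior, a filter on dim genes, median centring, the mean of a gene's probe sets, only the 6 arrays compared, a replicate block, leaving out each array and, chosen after seeing the data, the myoblast markers without Pax7.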

Additional observations from a re-analysis of the deposited data

How the results depend on the processing

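Of 570 values recomputed under 15 alternatives and, chosen after seeing the data, with the myoblast markers counted without Pax7, 531 kept their direction and side of the threshold or stayed within 1.5 times the count. Without the lowest 50% of genes, 6 members (Gap43, Ina, Map2, Nrn1, Prph and Tubb3) were not fitted, and of the 4 that were, 3 passed with Pax3, 3 with Pax7 and 1 between the factors. Leaving out single arrays, 2 to 5 members passed between the factors, 2 of them without Pax3 replicate 1 or Pax7 replicate 2 or 3 and 3 without Pax7 replicate 1. Of calls on single members, 20 were lost (of Gap43, Tubb3 and Nrn1) and 1 gained (of Prph), as given with those genes. Values that changed sign passed in neither setting. Between the factors they were Nefh at 0.014 with centred arrays and Ina at -0.019 with the mean of its probe sets, and with single arrays left out Nefm from -0.084 to 0.024, Nefh from -0.079 to 0.073, Ina from -0.029 to 0.045 and Prph from -0.030 to 0.10. Against control, Nefh ran from -0.018 to 0.13 with Pax3 when single arrays were left out. The cause of these changes was not tested, apart from the fewer genes fitted under the filter. Replicates share only a number: deviations of same-numbered arrays correlated at -0.026 to 0.22, with 3 of 9 pairs above 0.1. Arrays of different groups with unlike numbers correlated at -0.247 to 0.246. With a replicate block 7, 7 and 5 members, 26, 28 and 16 of the axonal genes and 7902, 8707 and 3328 of all genes passed in the comparisons of Pax3 with control, Pax7 with control and Pax7 with Pax3, and no member's call changed. No scanner files were used, so background correction could not be varied.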
